A study of Rattus norvegicus with 9 samples.

Results

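The genes described here are those of antigen presentation and protein breakdown: the molecules of the major histocompatibility complex (MHC), the proteins that load them with peptides, the subunits of the proteasome, and the cathepsins. They were picked by a rule on gene names, which was chosen with earlier results of these data known. It takes names beginning with H2-, Psma to Psmg, Tapbp, Erap1, Nlrc5 or Ciita. It also takes the names B2m, Tap1, Tap2 and Cd74, and Cts with 1 further letter. The rule found 53 of the 5760 genes listed in either deposited table. Of these, 45 were listed in the table that compares Cal with model (the treatment table), 8 in the table that compares model with sham (the sham table), and 0 in both, so no gene of the set has a level in all 3 groups.

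Cardiac RNA of 9 male Sprague Dawley rats was sequenced, 3 rats from each of 3 groups. Heart failure (HF) was induced in the model and Cal groups by tying off the left anterior descending artery of the heart, and the sham rats (labelled Control) had sham surgery. The Cal group received calycosin (Cal), a plant isoflavone, by mouth at 80 mg/kg per day for 28 days from 24 hours after surgery, and the other rats received distilled water. The rats' age is not given in the sources used here. Each value is a normalized count, a gene's reads divided by the size factor of its library. Both tables are limited to genes that had passed the deposited adjusted p, so a gene that is not listed has no value here. The identifiers and coordinates are those of mouse genes although the animals were rats, and no genome build is named for the coordinates.

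The headings of the tables conflict, so every library is named here by the heading of its own column. For 4288 of 4288 genes of the treatment table, the deposited group mean named Cal is the average of the Model sample columns, and the one named Model is the average of the Cal sample columns. For 2458 of 2458 genes of the sham table, the group mean named Model is the average of the sample columns headed Cal. Libraries are therefore called Cal-headed, Model-headed and Con-headed here. By the group means, every direction between Cal-headed and Model-headed libraries given below would be exchanged, and the libraries compared with sham would be the model group. The Cal-headed libraries hold identical reads in 986 of the 986 genes that both tables list.

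Class I molecules sit on nearly all cells and show peptides from proteins made inside the cell to T cells. The peptides are cut by the proteasome, carried into the endoplasmic reticulum by the transporter Tap1 and Tap2, trimmed by Erap1 and fitted to the class I molecule with the help of Tapbp. Under interferon-gamma the catalytic subunits Psmb5, Psmb6 and Psmb7 are replaced in newly made proteasomes by Psmb8, Psmb9 and Psmb10, which form the immunoproteasome, and the activator PA28 (Psme1 and Psme2) is induced with them. Class II molecules are made mainly by macrophages, dendritic cells and B cells and show peptides from proteins taken up from outside, cut by cathepsins in lysosomes. In the healthy heart the proteasome carries most of the protein turnover of the cardiomyocyte, and class II is found on its resident macrophages.

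The 6 libraries of the treatment table had size factors of 0.820 to 1.17 and held 2860826 to 3998471 reads on listed genes. Those of the sham table had size factors of 0.950 to 1.07 and held 3270460 to 4659882 such reads. Total depth is unknown, because only selected genes are listed. Of the cardiomyocyte genes checked as markers of the tissue, Myh6, Actn2 and Ryr2 were listed, all in the sham table, with summed normalized counts of at least 290268 in each library. A gene was called when limma gave an adjusted p under 0.05 and its log2 fold change, in either direction, exceeded 1. Since all listed genes had been chosen by the authors' own test, most of them differ by construction. Of the 4288 genes in the treatment table, 31.6% were called lower and 28.4% called higher in the Cal-headed libraries, and 98.2% had groups that did not overlap. Of the calls, 47.3% were higher in the Cal-headed libraries, and median-ratio scaling made this 61.1%.

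In the Cal-headed libraries, the class I genes, the genes of peptide loading and the genes of the immunoproteasome and PA28 were lower than in the Model-headed ones, and the listed class II genes were higher. All 21 of the first kind were called lower, with a median log2 fold change of -1.94, against a median of -0.52 over all listed genes. All 4 class II genes were called higher, with a median of 1.46. The 15 listed genes of the constitutive proteasome, the form present in all cells, were all lower, with a median of -0.53, and 0 were called. That median was close to the one over all listed genes, which mixes 1971 higher and 2317 lower genes and is no shift common to them. Under quantile normalization 5 of the 15 turned to higher values. Over the 45 listed members, 22 were called lower and 5 called higher, and the median was -0.84. Among all listed genes, 31.6% were called lower and 28.4% called higher. In tissue RNA, fewer cells of a type and less RNA per cell cannot be told apart.

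**Figure D1:**
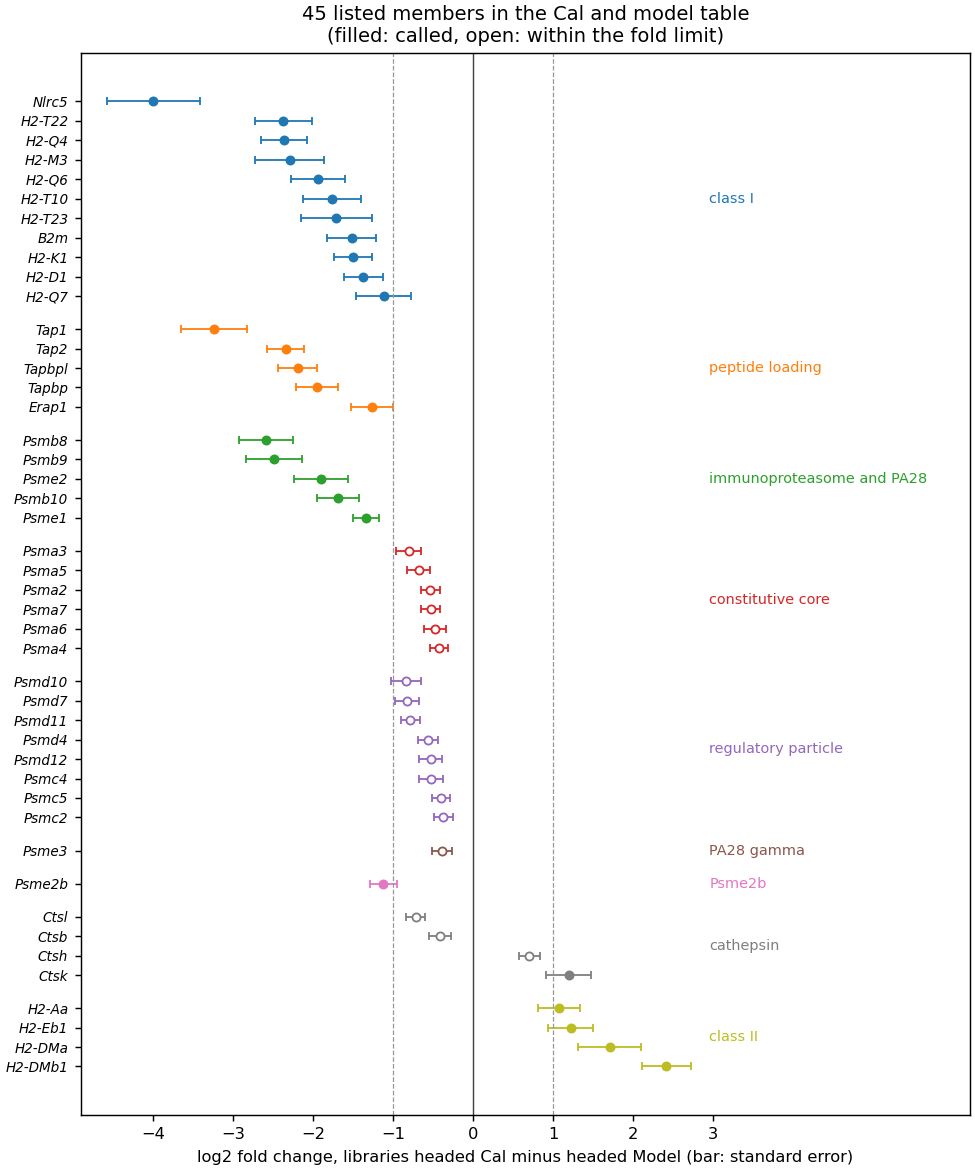
Log2 fold change of each of the 45 listed members, Cal-headed libraries minus the Model-headed ones, on the log2(normalized count + 1) scale, with its standard error; filled points passed the adjusted p and the fold limit shown by the dashed lines. The class I, peptide loading and immunoproteasome genes lie between -3.99 and -1.12, the constitutive genes between -0.84 and -0.37 (5 of 15 above 0 under quantile normalization), and the class II genes between 1.07 and 2.41.

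Class I molecules consist of a heavy chain, encoded in the mouse by H2 genes, and the shared light chain B2m. B2m (ENSMUSG00000060802) had normalized counts of 7331, 4793 and 9814 in the Cal-headed libraries 1 to 3 and 19245, 26483 and 15907 in the Model-headed ones 1 to 3. Every Cal-headed library was below every Model-headed library, and 98.2% of all listed genes likewise had groups that did not overlap. The log2 fold change of B2m was -1.52 (± 0.30, its standard error, SE, adjusted p = 0.00297). The heavy chain H2-K1 had 4991, 3677 and 6624 against 12013, 15228 and 15161, a log2 fold change of -1.50 (± 0.24 SE, adjusted p = 0.00123). H2-D1, the other listed classical heavy chain, had 5454, 4253 and 7216 against 11188, 16190 and 16004. Its log2 fold change was -1.37 (adjusted p = 0.00197), so light chain and both classical heavy chains differed by close to the same amount, with ratios of group means of 2.56 to 2.81. Under quantile normalization the log2 fold changes of B2m, H2-K1 and H2-D1 shrank to -0.59, -0.70 and -0.57. All 3 lost the call there, and B2m also missed the adjusted p (0.0779).

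Of the nonclassical class I genes, which include molecules that engage receptors of NK cells and of specialized T cells, 7 were listed. All were called lower, against 31.6% of all listed genes. H2-Q4 had 1085, 949.9 and 1676 in the Cal-headed libraries and 4577, 8558 and 6084 in the Model-headed ones, a log2 fold change of -2.37 (adjusted p = 0.000516). H2-T23, which encodes Qa-1, the ligand of the NK cell receptor CD94/NKG2A, had 826, 393 and 1509 against 2164, 3179 and 2495. The groups did not overlap for either gene, as for 98.2% of all listed genes. The spread among the Cal-headed libraries was wide for H2-T23, whose mean there was 909.6 ± 563 (SD, n = 3). H2-M3, which presents formylated peptides, had a mean of 103 ± 41.8 (SD, n = 3) against 519.65 ± 242 (SD, n = 3), a log2 fold change of -2.29. H2-T22 had a log2 fold change of -2.37, H2-Q6 of -1.94 and H2-T10, deposited as a polymorphic pseudogene and low in all libraries, of -1.76. H2-Q7 had the smallest difference of the class I genes at -1.12 (adjusted p = 0.0148). It lost the call without Model replicate 2 (log2 fold change -0.92, adjusted p = 0.0535) and without Cal replicate 2 (-0.77). The call was also lost under quantile normalization and median-ratio scaling, and over all alternatives the adjusted p of H2-Q7 ranged from 0.00536 to 0.0535. The H2 genes are near copies of each other, the animals' own genes are the rat RT1 genes, and reads may have been split among these mouse names, so the value of a single H2 gene is uncertain.

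Nlrc5, the transactivator of class I genes, had the largest log2 fold change of the 53 genes. Its normalized counts were 246, 69.5 and 377 in the Cal-headed libraries and 2505, 4251 and 2495 in the Model-headed ones. The lowest Model library was above the highest Cal library by a wide margin, and the log2 fold change was -3.99 (± 0.58 SE, adjusted p = 0.00093). The ratio of the group means was 13.4. Leaving out each library in turn gave -4.50 to -3.29. An antisense gene, 9330175E14Rik, shares 748 bases with Nlrc5 and was also lower (log2 fold change -1.80), and reads of the overlap cannot be assigned without strand.

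Counts per kilobase of deposited gene length compare levels of different genes only roughly, since the lengths are those of mouse genes. Reads may also have been split among the H2 names. By this measure B2m was the highest of the class I genes in both groups. It had 8503 normalized counts per kilobase in the Cal-headed libraries and 23889 in the Model-headed ones. H2-D1 and H2-K1 followed with 2187 and 1954 per kilobase in the Cal-headed libraries and 5607 and 5419 in the Model-headed ones. H2-Q4 and H2-Q6 stood at 476 and 479 in the former and 2468 and 1786 in the latter. H2-T10 was the lowest, at 6.69 and 22.7. The level of Nlrc5 per kilobase was 27.2 in the Cal-headed libraries and 363 in the Model-headed ones.

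The peptide loading genes moved with the class I molecules, and all 5 listed genes were called lower, against 31.6% of all listed genes. Tap1 (mouse chromosome 17 from 34187553 to 34197225, plus strand), a subunit of the peptide transporter, had 519, 376 and 1174 in the Cal-headed libraries and 4311, 7384 and 6061 in the Model-headed ones. The groups were far apart, and its log2 fold change of -3.24 (± 0.41 SE, adjusted p = 0.000593) stood beside a ratio of group means of 8.58. Its partner Tap2 had 422, 324 and 570.5 against 1983, 2624 and 1965, a log2 fold change of -2.34 (adjusted p = 0.000272). Tapbp (tapasin), which bridges the transporter and the empty class I molecule, had 1390.1, 1134 and 2149 against 4700, 6008 and 6926 and a log2 fold change of -1.95. Tapbpl, a peptide editor related to tapasin, had a log2 fold change of -2.19, with a mean of 163 ± 32.9 (SD, n = 3) against 760.1 ± 222 (SD, n = 3). Erap1, the aminopeptidase that trims peptides to their final length, had the smallest difference of the group, with 721, 589 and 772 against 1824, 2226 and 1115. Its groups did not overlap either, as for 98.2% of all listed genes, and its log2 fold change was -1.26 (adjusted p = 0.00333). Erap1 lost its call under quantile normalization and under median-ratio scaling. Over all alternatives its log2 fold change shrank to as little as -0.80, with an adjusted p of up to 0.0131.

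All 5 listed genes of the immunoproteasome and PA28 were also called lower, against 31.6% of all listed genes. The catalytic subunit Psmb8 had 304, 194 and 495 in the Cal-headed libraries and 1461, 1948 and 2277 in the Model-headed ones, a log2 fold change of -2.59 (± 0.34 SE, adjusted p = 0.000639). Psmb9 had 155, 92.9 and 266 against 883, 1009 and 771, a log2 fold change of -2.49 (adjusted p = 0.000862). Psmb10 had 679.8, 519.99 and 774 against 1459, 2291 and 2776, and its log2 fold change was smaller at -1.69 (adjusted p = 0.00117). The means of the 3 subunits were thus 5.72, 5.19 and 3.31 times higher in the Model-headed libraries. No library of one group reached the other group, as for 98.2% of all listed genes. Of the activator subunits, Psme1 had 1647, 1604 and 1962 against 3712, 4922 and 4620, and Psme2 had 540.5, 259 and 703 against 1600, 1906 and 1681. Their log2 fold changes were -1.34 and -1.90 (adjusted p = 0.000489 and 0.002). Under quantile normalization Psme1 shrank to -0.80 and lost its call. Psme2b, a locus named after Psme2 that is 837 bases long, was called lower too (log2 fold change -1.12). It lost the call under quantile normalization (-0.92) and median-ratio scaling (-0.83). It also lies wholly within another listed locus, Gm12185, on the same strand, and its reads may belong to either.

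**Figure D2:**
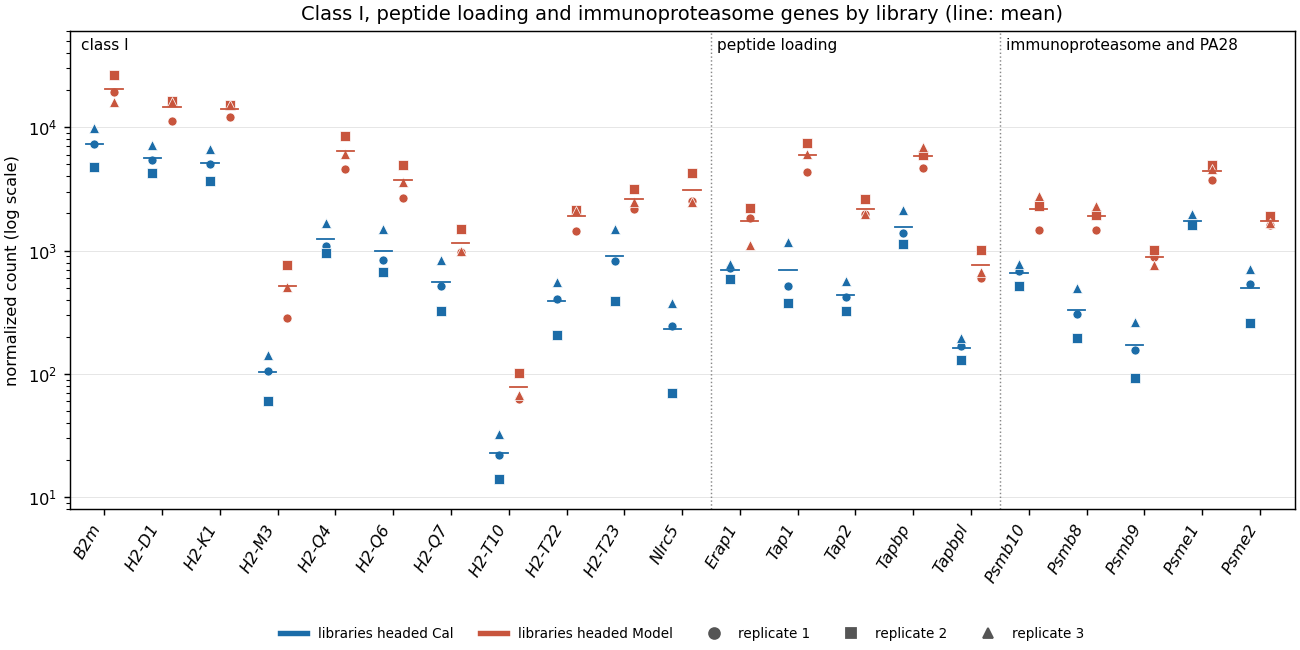
Normalized count on a log axis of the 21 class I, peptide loading, immunoproteasome and PA28 genes in each library, with circles, squares and triangles for replicates 1, 2 and 3 and a line at each group mean. The groups do not overlap for any gene, as for 98.2% of all listed genes. In the Cal-headed libraries replicate 3 (triangle) is the highest and replicate 2 (square) the lowest for all 21.

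The rat promoters of these genes are shown because the genes moved together. Of the 53 members, 34 were matched to a promoter in RefSeq (rat build GRCr8), and each window is the 250 bases before the annotated start, written 5′ to 3′ on the gene's strand. Capitals mark matches on either strand to GAAANNGAA, letters of the element bound by interferon regulatory factors (IRF), and to TTCNNNGAA, letters of the gamma-activated site (GAS). The windows may hold other sites, and a match is a description of the letters only. The first 2 windows are those of Tap1 (chr20:4668544-4668793, minus strand) and Psmb9 (chr20:4668750-4668999, plus strand), whose starts lie 457 bases apart on opposite strands and whose windows share 44 bases. B2m (chr3:129549080-129549329, plus strand) and Psmb10 (chr19:50743293-50743542, minus strand) are set beside them as the class I gene with the highest level and the window of these genes with the most matches.
Tap1: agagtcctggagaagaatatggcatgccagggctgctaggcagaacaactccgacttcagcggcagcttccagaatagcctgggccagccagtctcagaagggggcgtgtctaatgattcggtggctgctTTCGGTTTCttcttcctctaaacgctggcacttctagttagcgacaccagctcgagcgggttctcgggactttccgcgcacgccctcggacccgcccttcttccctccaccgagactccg
Psmb9: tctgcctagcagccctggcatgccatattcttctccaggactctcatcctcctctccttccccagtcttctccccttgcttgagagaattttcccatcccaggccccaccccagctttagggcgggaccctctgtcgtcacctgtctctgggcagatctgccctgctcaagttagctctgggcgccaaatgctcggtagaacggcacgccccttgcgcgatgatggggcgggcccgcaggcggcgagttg
B2m: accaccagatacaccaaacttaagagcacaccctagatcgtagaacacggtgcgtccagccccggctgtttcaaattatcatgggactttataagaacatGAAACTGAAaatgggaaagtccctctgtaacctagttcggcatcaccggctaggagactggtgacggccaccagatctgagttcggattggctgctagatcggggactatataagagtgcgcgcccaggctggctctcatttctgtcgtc
Psmb10: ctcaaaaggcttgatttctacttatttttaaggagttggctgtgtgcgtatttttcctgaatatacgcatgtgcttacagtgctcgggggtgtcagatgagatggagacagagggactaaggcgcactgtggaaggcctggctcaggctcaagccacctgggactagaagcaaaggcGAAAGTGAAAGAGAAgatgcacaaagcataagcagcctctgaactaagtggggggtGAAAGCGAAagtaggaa
Each of the Tap1 and B2m windows holds 1 match to the IRF letters, the Psmb10 window 3, of which a pair overlap, and the Psmb9 window 0.

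Among the class I, peptide loading, immunoproteasome and PA28 genes, 12 of 23 (the 21 and the pseudogenes H2-K2 and H2-Q5) had a window, and 7 of those held the IRF letters: B2m, H2-T23, Tap1, Tap2, Tapbp, Psmb10 and Psme2. H2-T23 was matched through the synonym of the rat gene RT1-S3. The GAS letters were in 2 of the 12, Psmb8 and H2-M3. Of the 17 constitutive proteasome windows, 3 held the IRF letters and 1 the GAS letters. Over all 33465 rat promoters of the same length, 8.12% held the IRF letters and 7.67% the GAS letters. The Y box letters ATTGG, found in promoters of MHC genes, were in 5 of the 12 windows and in 34.0% of all promoters. The antioxidant response element letters TGACNNNGC, bound by Nfe2l1 and Nfe2l2, were in 2 of the 17 constitutive windows and in 10.1% of all promoters.

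The 21 genes kept the same order among the Cal-headed libraries. In 21 of 21 the highest value was in Cal replicate 3 and the lowest in Cal replicate 2, whereas over all 4288 listed genes Cal replicate 3 was the highest in 1709 and Cal replicate 2 the lowest in 1786. Their summed normalized count was 28373, 20624 and 39331 in the Cal-headed libraries 1 to 3 and 79636, 114655 and 94255 in the Model-headed ones 1 to 3. In the Model-headed libraries, replicate 2 was the highest for 18 of the 21 genes and replicate 1 the lowest for 16. The same order held for the summed counts of the class II genes (1737, 1545 and 1954), the macrophage and monocyte markers (8001, 6968 and 8566), the endothelial markers (13079, 10587 and 13104), the smooth muscle and pericyte markers (3201, 3194 and 3440) and Pax5. It did not hold for the summed neutrophil markers (76.6, 177 and 243), Gzmb, or the dendritic cell and fibroblast markers. Of the 9 listed genes of interferon-gamma signalling, 7 were highest in Cal replicate 3, 4 were lowest in Cal replicate 2 and 5 in Cal replicate 1. The part of these cells in the order was not tested. The constitutive core subunits varied little, with summed counts of 6239, 6405 and 6268.

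The constitutive proteasome consists of a core of alpha and beta subunits and a regulatory particle that recognizes and unfolds ubiquitinated proteins. All 15 of its listed subunits in the treatment table passed the adjusted p with lower values in the Cal-headed libraries, where 53.7% of all listed genes did so, and none passed the fold limit. Under quantile normalization 5 of the 15 turned to higher values and 1 kept an adjusted p under 0.05, and under median-ratio scaling, which raised log2 fold changes by 0.30 (median over genes), 5 kept it. The direction of these genes therefore depends on the scaling, while the 21 genes above stayed lower under both, with 19 and 21 passing the adjusted p and 15 and 19 called.

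The largest difference in the constitutive proteasome was that of Psmd10 (gankyrin, an assembly chaperone of the regulatory particle), with 131, 144 and 120 in the Cal-headed libraries and 238, 276 and 201 in the Model-headed ones, a log2 fold change of -0.84. Psmd7 had 1348, 1383 and 1388 against 2446, 2835 and 2073, a log2 fold change of -0.82. Psma3, an alpha subunit, and Psmd11, whose level is limiting for the assembly of complete proteasomes in stem cells, had log2 fold changes of -0.80 and -0.78. At the other end, the ATPase subunits Psmc2 and Psmc5, the alpha subunit Psma4 and Psme3 (PA28 gamma, a nuclear activator) had log2 fold changes between -0.43 and -0.37. The remaining 7 subunits, Psma2, Psma5, Psma6, Psma7, Psmc4, Psmd4 and Psmd12, lay between -0.68 and -0.48. Without Cal replicate 1 the adjusted p rose to 0.0667 for Psmc2, 0.0511 for Psmc4 (named for this change), 0.0522 for Psmc5 and 0.0613 for Psme3, and without Cal replicate 3 it was 0.0655 for Psmc2. Over all alternatives the adjusted p of these 4 genes ranged from 0.00277 to 0.594.

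A ratio of subunits within a library does not depend on scaling. Of the 4 pairs considered, only Psme1 and Psme3 were listed in the same table. They belong to separate activators, so their ratio is not one of a subunit to the subunit that it replaces. Per kilobase, the log2 ratio of Psme1 to Psme3 was 1.20, 1.07 and 1.36 in the Cal-headed libraries and 2.01, 2.26 and 2.21 in the Model-headed ones. The groups did not overlap, and the means differed by -0.95, from 2.16 ± 0.13 (SD, n = 3) to 1.21 ± 0.15 (SD, n = 3), with a two-sided exact permutation p of 0.1, the smallest that 3 libraries against 3 allow. Psmb5 and Psmb7, the counterparts of Psmb8 and Psmb10, were listed only in the sham table, and Psmb6 in neither.

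The class II genes went the other way. H2-Aa and H2-Eb1 encode the alpha chain of the I-A molecule and the beta chain of the I-E molecule. H2-Aa had 840, 726 and 968 in the Cal-headed libraries and 351, 302 and 596 in the Model-headed ones, a log2 fold change of 1.07 (± 0.26 SE, adjusted p = 0.00649). H2-Eb1 had 768, 711 and 874 against 300.2, 239 and 527, a log2 fold change of 1.22 (adjusted p = 0.0053). The groups did not overlap, as for 98.2% of all listed genes, but both values sat close to the fold limit. H2-Aa fell under it without Model replicate 1 (0.98), Model replicate 2 (0.87) or Cal replicate 3 (0.97), and H2-Eb1 without Model replicate 2 (0.97), while both kept an adjusted p under 0.05.

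H2-DMa and H2-DMb1 encode the chains of H2-DM, the class II peptide editor, and stood at lower counts. H2-DMb1 had 71.0, 59.1 and 57.2 in the Cal-headed libraries and 9.72, 8.54 and 15.3 in the Model-headed ones, a log2 fold change of 2.41 (± 0.30 SE, adjusted p = 0.000567) and a ratio of group means of 5.58. H2-DMa had 57.2, 48.8 and 55.5 against 24.8, 8.54 and 18.2, a log2 fold change of 1.70 (adjusted p = 0.00511). Every Cal-headed library was above every Model-headed library for both genes, although the lowest Model library held only 7 reads of each. Groups did not overlap for 98.2% of all listed genes. The invariant chain Cd74, the class II transactivator Ciita and H2-Ab1, the partner chain of H2-Aa, were listed in neither table and have no value here.

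Markers of macrophages, which make class II, differed in both directions. Over all listed genes of the treatment table, 53.7% passed the adjusted p with lower and 46.0% with higher values in the Cal-headed libraries. Of 13 macrophage and monocyte markers 10 were listed in the treatment table, 6 with higher and 4 with lower values in the Cal-headed libraries, and all passed the adjusted p. Their summed normalized count was 6968 to 8566 in the Cal-headed libraries and 3423 to 4712 in the Model-headed ones. Cd163 (279, 399 and 364 against 134, 82.9 and 114), Csf1r (961, 773 and 980 against 337, 239 and 350), C1qa, C1qc, Lyz2 and Cd68 were higher, as were the class II genes. Ly6c2 (0, 3.75 and 15.4 against 146, 183 and 188), Ccr2, Itgam and Fcgr1 were lower, as were the class I genes, and Ly6c2 was at 0 in Cal replicate 1. Of the dendritic cell markers, 2 of 8 were listed, Zbtb46 higher and Ccr7 lower and at 0 in Cal replicate 2, with summed counts of 579 to 773 against 178 to 273. The only listed B cell marker was Pax5, at 2.82 to 11.1 against 17.3 to 57.3. The part of these cells in the class I and class II results was not tested.

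Markers of other cells differed in both directions too, in a table where 31.6% of all listed genes were called lower and 28.4% called higher. Neutrophil markers were lower in the Cal-headed libraries, 6 of 8 listed and all 6 called, with summed counts of 76.6 to 243 against 852 to 1016, and Mpo was at 0 in all 3 Cal-headed libraries. The only listed T and NK cell marker, Gzmb, had 1.84 to 5.12 against 46.3 to 66.1. Endothelial markers were higher, 6 of 8 listed and 3 called, with summed counts of 10587 to 13104 against 4691 to 6278. Of the 7 fibroblast markers, 3 were listed, 2 higher and 1 lower, with summed counts of 12086 to 15382 against 13412 to 19335. Smooth muscle and pericyte markers, 2 of 6, were higher at 3194 to 3440 against 2079 to 2306. None of the 10 cardiomyocyte markers was listed in this table. The part of these cells was not tested either.

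**Figure D3:**
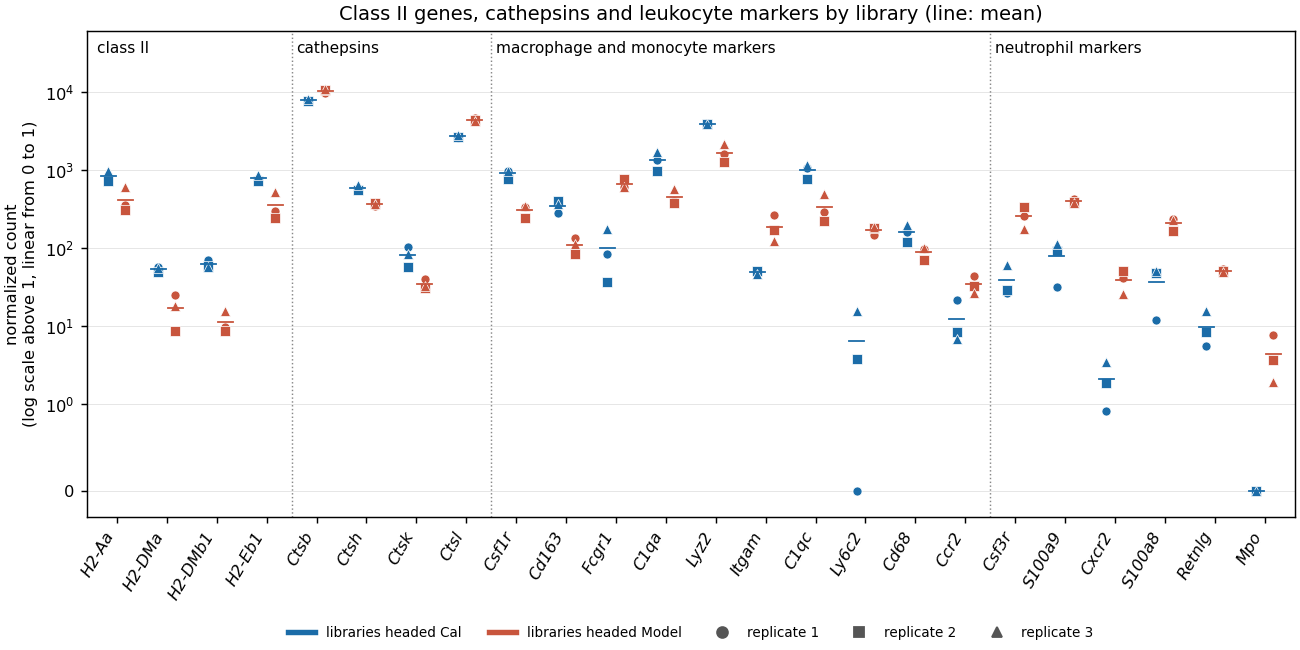
Normalized count in each library of the 4 class II genes, the 4 cathepsins and the listed markers of macrophages and neutrophils, on an axis that is logarithmic above 1 and linear from 0 to 1, with a line at each group mean. The class II genes and Csf1r, Cd163, C1qa, C1qc, Lyz2 and Cd68 are higher in the Cal-headed libraries, and Fcgr1, Itgam, Ly6c2, Ccr2 and the neutrophil markers are lower.

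The listed cathepsins, lysosomal proteases, did not share a direction. Ctsk, the collagen-degrading cathepsin best known from bone, had 102, 57.3 and 84.5 in the Cal-headed libraries and 40.0, 30.5 and 32.6 in the Model-headed ones, and was called higher (log2 fold change 1.19, adjusted p = 0.00571). Ctsh had 571, 558 and 646 against 346, 378 and 366, a log2 fold change of 0.70 (adjusted p = 0.00256). Over all listed genes, 46.0% passed the adjusted p with higher values in the Cal-headed libraries. Ctsl, which can cut the invariant chain, had 2562, 2662 and 2841 against 4658, 4326 and 4301, a log2 fold change of -0.72 (adjusted p = 0.00177). Ctsb had 7582, 7746 and 8020 against 9718, 10677 and 10792, a log2 fold change of -0.42 (adjusted p = 0.0182). The groups did not overlap for any of the 4 genes, as for 98.2% of all listed genes. Ctsb turned to 0.36 under quantile normalization (adjusted p = 0.0777) and missed the adjusted p without Cal replicate 1 or 2 (0.0802 and 0.066). Its adjusted p over all alternatives ranged from 0.00197 to 0.429. Over the same alternatives the log2 fold change of Ctsl shrank to as little as -0.15, with an adjusted p of up to 0.395. Under quantile normalization Ctsk fell to 0.97 and lost its call. Ctss, the main protease of the invariant chain in macrophages, was not listed.

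In the mouse, 18 of the 45 listed members lie on chromosome 17 between 33915899 and 37274484, a span of 3.359 megabases that forms the MHC. Of these, 14 were lower and 4 higher in the Cal-headed libraries, and the direction changed over short distances. Psmb9, Tap1, Psmb8 and Tap2 lie side by side from 34181988 to 34216321, and all were lower by log2 fold changes of -3.24 to -2.34. H2-DMb1 ends before Psmb9 begins and H2-Aa follows Tap2, and both were higher. The deposited Psmb9 and Tap1 genes overlap by 212 bases on opposite strands, and reads there cannot be told apart without strand, but both genes are several kilobases longer. The span holds 28 other listed genes, of which 15 were lower and 10 were called lower and 10 called higher, with a median log2 fold change of -0.72. Their calls were near the shares over all listed genes of the treatment table, 31.6% called lower and 28.4% called higher. Outside the span, Psmb10 and Nlrc5 on chromosome 8, Psme1 and Psme2 on chromosome 14, Erap1 on chromosome 13, B2m on chromosome 2 and Tapbpl on chromosome 6 were lower as well.

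**Figure D4:**
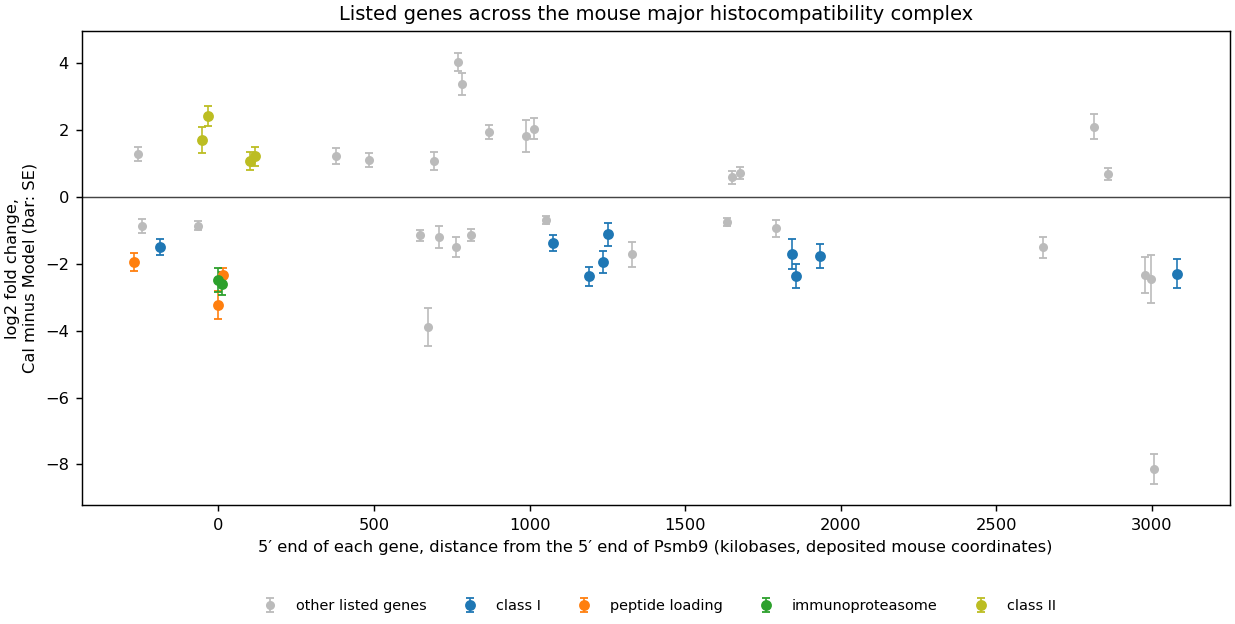
Log2 fold change with standard error, Cal-headed libraries minus the Model-headed ones, of the 46 listed genes in the mouse MHC against the distance of their 5′ ends from that of Psmb9 in kilobases of the deposited coordinates. The 4 class II genes lie above 0 on both sides of the Tap and immunoproteasome genes, all class I genes lie below 0, and the other listed genes lie on both sides of 0. The lowest grey point, Ubd, had at most 3 reads in each Cal-headed library.

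Other genes of the pathway were read from 5 lists of 89 genes, of which 35 were listed in the treatment table, 19 called lower and 3 called higher. Over all listed genes of that table, 31.6% were called lower and 28.4% called higher in the Cal-headed libraries. The adjusted p was passed with lower values by 53.7% of all listed genes. Of 14 genes of interferon-gamma signalling, 9 were listed, all 9 passed the adjusted p with lower values in the Cal-headed libraries, and 7 were called, with a median log2 fold change of -1.65. The checkpoint ligand Cd274 (PD-L1) had 341, 206 and 932 against 7801, 20151 and 9927, a log2 fold change of -4.84 (adjusted p = 0.00045). Socs1, a feedback inhibitor of the pathway, had a log2 fold change of -2.44 and the transcription factor Irf8 of -1.98. Ifng itself was not listed. No Cal-headed library overlapped a Model-headed one for Cd274, Socs1 and Irf8, as for 98.2% of all listed genes.

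Of 12 genes of the class II path, 6 were listed and all were called, 2 higher and 4 lower. Over all listed genes, 28.4% were called higher and 31.6% called lower. Cd83, which keeps class II on the surface of dendritic cells, had 1801, 1008 and 1508 in the Cal-headed libraries against 175, 368 and 158, a log2 fold change of 2.68. The costimulatory genes Cd40 (268, 326 and 466 against 1323, 2615 and 1743, log2 fold change -2.40) and Cd80 (-1.10) and the class II promoter factor Rfx5 (-1.20) were lower, so this list did not move as the 4 class II genes did. Of 17 genes of class I assembly and related class I molecules, 5 were listed. Hfe, the class I-like regulator of iron uptake, and Ggta1, an enzyme that adds galactose to glycans and no class I molecule, were called lower (-1.22 and -1.23), Fcgrt, the neonatal Fc receptor, was called higher (1.22), and Lnpep, a relative of Erap1, was lower without a call (-0.77).

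Of 23 genes of ubiquitin supply and proteasome cofactors, 7 were listed and all passed the adjusted p with lower values, 3 of them called. Over all listed genes, 53.7% passed with lower values and 31.6% were called lower. Ubd (FAT10), an interferon-induced ubiquitin-like protein that sends its targets to the proteasome, had 1222, 887 and 400 in the Model-headed libraries and 1.84, 0.939 and 2.56 in the Cal-headed ones, where each library held at most 3 reads, so no fold is given. Uba7, the activating enzyme of the ubiquitin-like Isg15, and Ddi2, the protease that activates Nfe2l1, had log2 fold changes of -2.23 and -1.25. Nfe2l2, a transcription factor of the oxidative stress response, was lower without a call (-0.94). Of 23 lysosomal genes and cathepsin inhibitors, 8 were listed, 4 higher and 4 lower. The serpins Serpina3g (15.7, 56.3 and 70.0 against 2204, 2016 and 1386), an inhibitor of cathepsins, and Serpina3n (123, 484 and 359 against 7977, 7841 and 7134) were called lower by log2 fold changes of -5.49 and -4.78, as was Serpinb1a (-1.42). Mitf, a regulator of lysosomal genes, was higher without a call (0.97).

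In the sham table, the Cal-headed libraries were set against the Con-headed ones. The 8 listed members all had higher values in the Cal-headed libraries, with a median log2 fold change of 0.48 against 0.37 over all 2458 listed genes. All 8 passed the adjusted p, as did 60.6% of the listed genes in that direction, and 2 were called, where 18.0% of the listed genes were called higher. Of all calls in this table, 62.2% were higher in the Cal-headed libraries, against 47.4% under quantile normalization and 43.4% under median-ratio scaling. The groups did not overlap for any of the 8, as for 97.4% of listed genes.

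Both called members were class I pseudogenes by their deposited type, which in mouse strains can differ from a functional gene. H2-Q5 had 373, 202 and 535 in the Cal-headed libraries and 35.4, 125 and 42.5 in the Con-headed ones, a log2 fold change of 2.56 (± 0.50 SE, adjusted p = 0.00244). H2-K2 had 143, 105 and 187 against 24.2, 77.6 and 52.6, a log2 fold change of 1.59 (adjusted p = 0.0067). Con replicate 2 was the highest of its group for both, and Cal replicate 3 the highest and Cal replicate 2 the lowest, the order seen for the 21 genes above. Reads of other class I genes can reach these near copies, so they cannot be tied to a rat gene.

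The other 6 members had small differences. Psmb5 and Psmb7, the catalytic subunits that Psmb8 and Psmb10 replace, had 1274, 1217 and 1425 against 819, 870.2 and 947 and 1555, 1899 and 1645 against 1057, 978 and 1111. Their log2 fold changes were 0.57 (adjusted p = 0.00162) and 0.69 (adjusted p = 0.000718). Psmb4, a noncatalytic beta subunit, had a log2 fold change of 0.36 and Psmd2, a scaffold of the regulatory particle, of 0.28. Ctsd, the main aspartic protease of lysosomes, had 6845, 7507 and 8014 against 5691, 5687 and 6026 (log2 fold change 0.36), and Ctsf had a log2 fold change of 0.38. Median-ratio scaling lowered log2 fold changes by 0.28 (median over genes), after which Psmb4, Psmd2, Ctsd and Ctsf no longer passed the adjusted p, and under quantile normalization Psmb4, Psmd2 and Ctsd turned to lower values in the Cal-headed libraries and Psmb5, Psmb7 and Ctsf no longer passed. H2-Q5 and H2-K2 kept their calls under both.

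**Figure D5:**
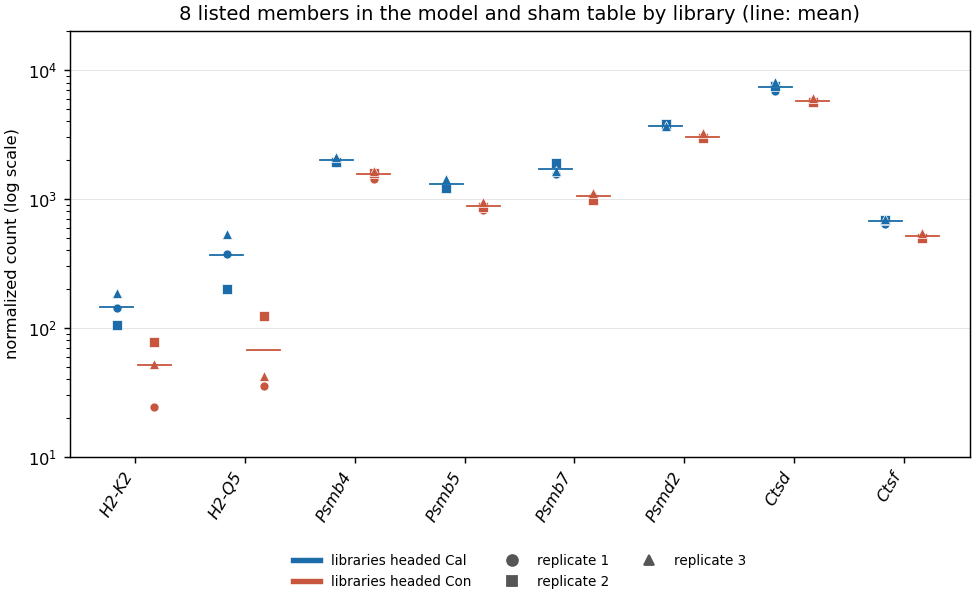
Normalized count on a log axis of the 8 listed members in each Cal-headed library and headed Con of the sham table, with circles, squares and triangles for replicates 1, 2 and 3 and a line at each group mean. H2-Q5 and H2-K2 have means 5.48 and 2.82 times higher in the Cal-headed libraries, and the other 6 have means 1.22 to 1.62 times higher.

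The lists gave 18 of 89 genes in the sham table, 8 called higher in the Cal-headed libraries and 1 called lower. Over all 2458 listed genes of that table, 443 were called higher and 269 called lower. Of the interferon-gamma signalling genes, 5 were listed, all higher and 4 called. Irf1, a factor that activates class I and immunoproteasome genes, had 6408, 4776 and 7748 in the Cal-headed libraries and 372, 635 and 402 in the Con-headed ones, a log2 fold change of 3.76 (adjusted p = 5.58e-06). Socs3 had 1833, 3501 and 2423 against 76.4, 91.3 and 50.6 (log2 fold change 5.12). Socs1 had a log2 fold change of 3.16 and Irf8 of 1.52. Socs1, Irf8 and Jak2 are listed in both tables, with values in the Cal-headed libraries below the Model-headed ones (-2.44, -1.98 and -1.61) and above the Con-headed ones (3.16, 1.52 and 0.64). The 2 comparisons share the Cal-headed libraries.

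The class II path gave 4 genes, all higher and 3 called: Cd83 (log2 fold change 3.07), Cd40 (2.67) and Cd80 (1.17), with Rfx5 at 0.64. Among all listed genes of the sham table, 18.0% were called higher. Of the class I assembly list, the only call was that of the glycan enzyme Ggta1, lower (-1.66), and Bag6 (0.46) and the chaperone Pdia3 (-0.25) were not called. The proteasome cofactors Nfe2l1 (0.42), Adrm1 (0.36), Nfe2l2 (0.34) and Zfand5 (0.31) were higher and not called, and of the lysosomal list Tfe3 was higher (0.87) without a call. Serpina3g, the only other listed gene of that list, was called higher (1.998) although its groups overlapped. In this table the neutrophil markers S100a8 and S100a9, 2 of 8 listed, were higher in the Cal-headed libraries (summed counts 48.5 to 183 against 13.0 to 28.5), and endothelial markers, 5 of 8, were lower (12146 to 14064 against 19512 to 22159). Of the macrophage markers only Ccr2 and Mrc1 were listed, both lower (summed counts 658 to 775 against 1016 to 1096). Of the dendritic cell markers Zbtb46 was higher and Clec9a lower, 4 of 7 fibroblast markers were lower (9550 to 12371 against 14389 to 16008), and 4 of 6 smooth muscle and pericyte markers were lower. No B cell or T and NK cell marker was listed. The cardiomyocyte markers Myh6 (log2 fold change 0.29), Actn2 (0.26) and Ryr2 (0.31), 3 of 10 listed, passed the adjusted p with higher values in the Cal-headed libraries. Their summed counts were 388869 to 392591 against 290268 to 364412, and none was called. The proteasome and cathepsin members also passed in this direction without a call. In this direction 60.6% of all listed genes passed the adjusted p. The median log2 fold change over all listed genes, which mixes 1493 higher and 965 lower genes, was 0.37, above that of each of the 3 markers. The part of these cells in the values of the 8 members was not tested.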

How the data were processed

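Cardiac RNA was extracted with TRIzol, and poly-A libraries were sequenced as paired 150-bp reads. According to the study's methods, the authors aligned reads to rat reference sequences, counted them per gene and normalized and tested the counts with DESeq2. The submitters' processing notes name Bowtie 0.12.2 and the mouse builds mm8 and mm9, and whether strand was used in counting is not given in the sources used here. As deposited, sample columns hold signal values: counts that the authors divided by a library's size factor, separately for each table. Whole reads came back for 100% of the values (tolerance 0.01), and 0 sample columns were left unused. The deposited fold changes, p-values and group means of the authors were not used, apart from the means in the check of headings.

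Libraries were grouped by the headings of their columns. Within each table, limma 3.58.1 in R 4.3.3 (trended prior variance) was fitted to log2(normalized count + 1) of all listed genes, with Benjamini-Hochberg adjustment over the table. Such fold changes understate the change of low genes. The call limits were 0.05 for the adjusted p and 1 for the absolute log2 fold change. On simulated data, 200 genes were given a log2 change of 2. limma found 100% of them, with 0 false calls, in a simulation of the 4288 genes of the treatment table (Cal with model). The same held in a simulation of the 2458 genes of the sham table (model with sham). Both simulations gave all genes the same dispersion and changed no other gene. Most listed genes differ by selection and their spread varies, so these counts do not give the error rates of the data. The test had been planned for normalized values or counts. On the recovered reads, edgeR 4.0.16 called 2593 and 716 genes and DESeq2 1.42.0 called 2596 and 717, against 2575 and 712 by limma. Each fit was also repeated after dropping 1 library at a time, with a replicate block, with a pseudocount of 0.1 or 10, without genes whose mean was under 10, after quantile normalization or median-ratio scaling, and with calls by adjusted p alone or by a limit of 0.01. The p-values rest on the spread among 3 rats per group, with the variance of each gene drawn toward a trend over the listed genes. These genes had been selected beforehand, so the adjusted p cannot be read as a false discovery rate over all genes.

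The members, the lists and the markers were chosen with earlier results of these data known. Named are all listed members of the class I, loading, class II, immunoproteasome and PA28, and cathepsin groups. Of the constitutive proteasome the rule names Psmb5, Psmb6, Psmb7 and Psme3 and, per table, the 4 highest and 4 lowest fold changes. Of each other list it names up to 4 genes per table, by fold change, whose higher group averaged 100 or more. Further genes were named after their values were seen. A gene that the rule names is not reported here. Rat promoters are from RefSeq (GRCr8), matched by symbol or by a single synonym. Counting error alone cannot be read from these values, since the genes were selected.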

Additional observations from a re-analysis of the deposited data

How the results depend on the processing

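For the members called between the Cal-headed and Model-headed libraries, 27 in all, the count was 19 to 27 under the alternatives other than adjusted p alone. Adjusted p alone gave 45 of the 45 listed members, with 39 lower in the Cal-headed libraries. The deposited tables hold only genes that had passed an adjusted p, so nearly every listed gene passes and this setting tells little. Members called higher numbered 3 to 5 and members called lower 21 to 22 when each library was left out in turn, with 3 called higher without Model replicate 2. With adjusted p alone, all 35 listed genes of the pathway lists passed in the treatment table, where 22 were called. In the sham table all 18 listed genes of the lists passed, where 9 were called, and all 8 members, where 2 were called. Leaving out each library gave 24 to 27 members called, 20 to 24 genes of the lists and a difference in the log2 ratio of Psme1 to Psme3 of -1.03 to -0.88, and in the sham table the counts were 2 members and 8 to 9 genes of the lists. Quantile normalization reversed Ctsb (0.36), Psmc2 (0.12), Psmc5 (0.10), Psma4 (0.078), Psme3 (0.077) and Psma6 (0.045) in the treatment table and Ctsd (-0.056), Psmb4 (-0.10) and Psmd2 (-0.21) in the sham table. B2m under it had a log2 fold change of -0.59 and missed the adjusted p (0.0779, with 1.35e-05 to 0.0779 over all alternatives). The median shift of log2 fold changes over all listed genes was 0.16 under quantile normalization and 0.30 under median-ratio scaling in the treatment table and -0.31 and -0.28 in the sham table. The cause was not tested. With the replicate block, 27 members were called in the treatment table and 2 in the sham table, as without it, and 22 and 9 genes of the lists. The correlation of deviations between libraries of the same number ranged from -0.14 to 0.11, and between libraries of different numbers from -0.20 to 0.25. The numbers belong to different animals. Deviations cancel out within each group, so these correlations cannot show whether libraries of the same number shared a batch. Levels over the 3 groups could not be given, since no member is listed in both tables. The selection of genes before deposit and 3 libraries per group limit all of these values.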
